A study of Mus musculus with 14 samples.

Results

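Kinesins are motor proteins that walk along microtubules and use the energy of ATP to do so. One branch of the family works in dividing cells, where its motors separate the spindle poles, align and move chromosomes and complete cytokinesis. Another branch carries organelles, vesicles and messenger RNA through the cell, and a few members build or run cilia, take part in signalling or take microtubules apart. The kinesin motor genes described here are those whose symbol is Kif with a number and at most one letter from a to c, which gave 37 of 24421 genes in the deposited tables. By their textbook roles they comprise 12 mitotic kinesins, 15 transport kinesins and 10 others.

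Polyadenylated RNA was sequenced in bulk from mouse gastric tumours that had been grown from transplants for 2 months, with about 1 cm3 of tissue per library. The 12 libraries form 4 groups of 3, namely TMPC tumours grown at the orthotopic site (the organ of origin) and TMPC, TMP and TM tumours grown under the skin. What TM, TMP and TMPC stand for is not given in the labels, so these serve as names only, and genotype, alleles, driver constructs, strain, sex and age of donors and hosts are not given in them. They also do not say whether replicates were separate animals, so the p-values cover only how far these libraries differ from each other, and that spread may be technical. In bulk tissue, fewer cells of a type and less RNA per cell cannot be told apart.

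Libraries held 16584781 to 21107310 counts. Levels are given as CPM, counts scaled to library size with TMM factors over all 12 libraries, on which scale 3 counts correspond to 0.133 to 0.201. Markers of gastric epithelium summed to 3836 to 6486 CPM over 10 genes in orthotopic TMPC tumours, but only to 0.819 to 1.44, 1.31 to 1.74 and 1.47 to 29.4 CPM in subcutaneous TMPC, TMP and TM tumours. Gkn2, Cldn18 and Pgc had no count in any subcutaneous TMPC or TMP library, and none of the other 7 was above 1.18 CPM there. General epithelial markers summed to 942 to 6881 CPM in the libraries other than TM replicate 2, which had 217 CPM, along with 2664 CPM of plasma and B cell markers. Orthotopic replicate 3 also stood apart, with 5095 CPM of liver markers against 47.3 and 41.2 CPM in orthotopic replicates 1 and 2. Some kinesin results that rest on these 2 libraries are also given without them. Counts over the other gene lists and over markers were made only with all libraries of a comparison.

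The mitotic kinesins were the part of the family that moved together. Every one with any count was higher in TMP and in TMPC tumours than in TM tumours under the skin, by 2.86- to 4.62-fold and 3.56- to 6.57-fold (14.3 and 18.0% of tested genes were called higher). At the orthotopic site 10 of 11 were called lower than in subcutaneous TMPC tumours (13.8% of tested genes), or 3 without orthotopic replicate 2. The transport kinesins as a class stayed near the median of all genes, and Kif5c and Kif5b were its members that were higher than TM in both other subcutaneous groups. Among the others, Kif26a moved with the mitotic kinesins. Kif9, Kif19a, Kif27 and Kif12 were called higher in orthotopic than in subcutaneous TMPC tumours. These 4 calls ended when either orthotopic replicate 1 or orthotopic replicate 2 was left out.

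**Figure D1:**
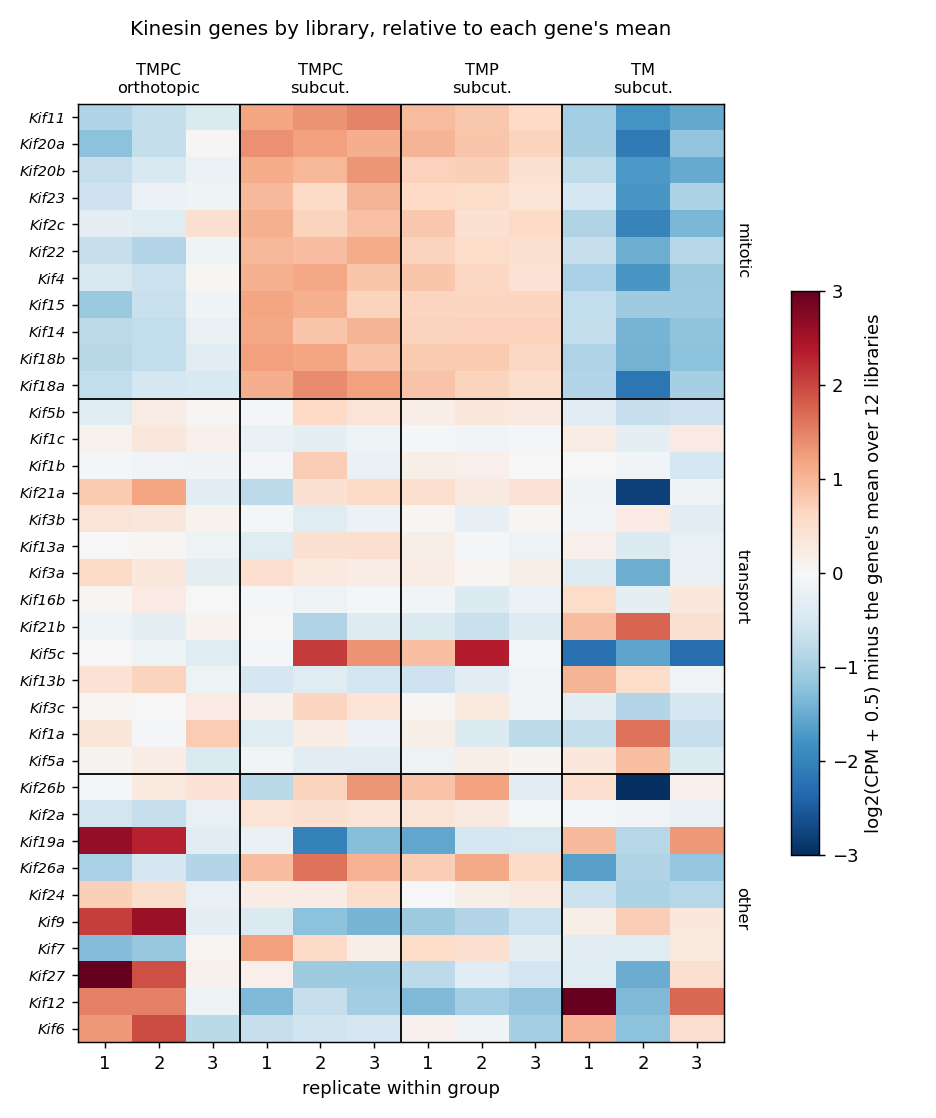
Each cell is the log2 of CPM plus 0.5 of one kinesin gene (rows, grouped as mitotic, transport and other) in one library (columns), minus the gene's mean over the 12 libraries; red is above and blue below that mean. The 11 detected mitotic kinesins share one pattern, high in the 6 subcutaneous TMPC and TMP libraries and low in the 3 TM libraries, while transport kinesins show no common pattern.

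Summed per length of exon, which allows levels of different genes to be added, the mitotic kinesins reached 43.9, 49.0 and 70.8 CPM per kb in the 3 orthotopic TMPC libraries, 167, 158 and 163 in subcutaneous TMPC, 133, 121 and 110 in TMP and 40.7, 21.5 and 31.4 in TM. The subcutaneous TMPC and TMP libraries thus held the 6 highest sums, and the orthotopic libraries lay between them and TM. The transport kinesins, on the same scale, summed to 161, 187 and 148 in orthotopic TMPC, 140, 185 and 169 in subcutaneous TMPC, 163, 167 and 159 in TMP and 145, 112 and 128 in TM. These groups overlapped, except that each orthotopic TMPC and each TMP library was above each TM library. Mitotic kinesins made up 17.7, 17.8 and 29.9% of the summed kinesin level in orthotopic TMPC libraries, 50.3, 42.6 and 45.4% in subcutaneous TMPC, 41.5, 38.3 and 38.3% in TMP and 19.2, 14.6 and 17.1% in TM.

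**Figure D2:**
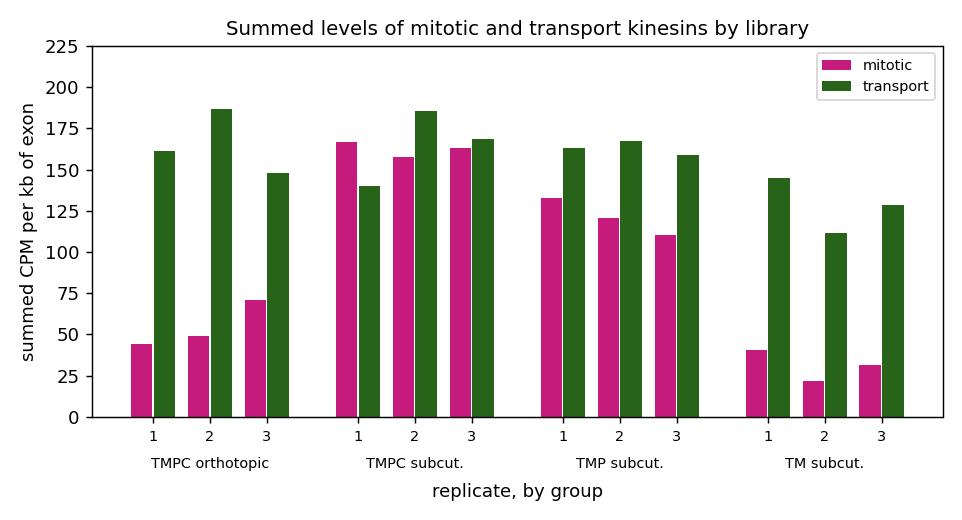
Bars give the summed level of the mitotic (pink) and transport (green) kinesins in each library, in CPM per kb of exon, by replicate within the 4 groups. Mitotic sums run from 110 to 167 in subcutaneous TMPC and TMP libraries and from 21.5 to 70.8 in orthotopic TMPC and TM libraries, while transport sums run from 112 to 187.

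The first comparison under the skin set TMP against TM tumours. The series sets out to separate genetic from microenvironmental factors, and this comparison varies the tumour at one site. Kif11, the motor that slides spindle microtubules apart to separate the poles (chromosome 19, 37376403 to 37421859 on mm10), stood at 198, 179 and 154 CPM in TMP libraries and 50.3, 28.8 and 35.1 CPM in TM libraries. The groups lay far apart, and the log2 fold change was 2.19 ± 0.21 (SE; edgeR adjusted p = 0.00142). Kif20a, a motor of the central spindle that is needed for cytokinesis, had 108, 94.4 and 84.5 CPM in TMP libraries against 26.5, 11.7 and 22.9 CPM in TM libraries. Its log2 fold change of 2.21 ± 0.27 was the largest of the class. Its exons share 29.3% of their length with Cdc23 on the opposite strand, and the sources used here do not say whether counting used strand. Cdc23 stood at 62.1 to 72.8 CPM in TMP and 37.7 to 46.7 CPM in TM libraries.

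All 11 tested mitotic kinesins were higher in TMP than in TM tumours (edgeR quasi-likelihood fit, Benjamini-Hochberg adjusted p at most 0.00765), where 14.3% of the 15277 tested genes were called higher and 13.4% lower. Their log2 fold changes ran from 1.51 to 2.21 with a median of 1.89, beside a median of -0.07 over all tested genes. Every TMP library was above every TM library in each of the 11, as in 27.5% of tested genes. Kif2c, which takes microtubules apart at centromeres, had 1.99 ± 0.26, and Kif18a, which dampens chromosome movements at the spindle equator, had 1.97 ± 0.33. Kif18b, which shortens astral microtubules, rose by 1.93 ± 0.19 and Kif20b, a motor of late cytokinesis, by 1.89 ± 0.24. Kif4, a chromosome-bound motor that also sets the length of the central spindle, rose by 1.89 ± 0.22. Kif14, which recruits citron kinase to the cleavage site, rose by 1.77 ± 0.20 and Kif15, a second motor of spindle pole separation, by 1.60 ± 0.18. Kif22, a motor bound to chromosome arms, rose by 1.53 ± 0.19, and Kif23, the motor subunit of centralspindlin in cytokinesis, by 1.51 ± 0.27. The 12th member, Kif2b, had no count in any of the 12 libraries.

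Without TM replicate 2 these 11 genes were still called, with smaller values, such as 2.06 ± 0.21 for Kif11, 1.96 ± 0.17 for Kif20a and 1.68 ± 0.20 for Kif18a (edgeR adjusted p = 0.00119, 0.000847 and 0.00164). In that library the mitotic kinesins summed to 135 CPM, against 252 and 192 CPM in TM replicates 1 and 3, and the proliferation marker Mki67 stood at 153 CPM, against 176 and 116 CPM. The ratio of the mitotic sum to Mki67 was 1.56 to 1.72 in TMP libraries and 1.43, 0.884 and 1.65 in TM libraries. Proliferation markers moved with the mitotic kinesins: 8 of 8 were higher in TMP tumours (median log2 fold change 2.06), and their sum was 1749 to 2029 CPM in TMP and 465 to 584 CPM in TM libraries. Immune cell markers moved the other way, with 4 of 5 macrophage and monocyte markers and 3 of 3 neutrophil markers lower in TMP tumours (13.4% of tested genes). Macrophage and monocyte sums were 126 to 244 CPM in TMP libraries and 844, 2333 and 762 CPM in TM replicates 1, 2 and 3. Neutrophil sums were 20.5 to 41.8 CPM in TMP libraries and 112, 3076 and 172 CPM in those TM replicates. Both were highest in TM replicate 2, and the counts of lower markers were made with that library. The part of any of these in the difference of the kinesins was not tested.

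**Figure D3:**
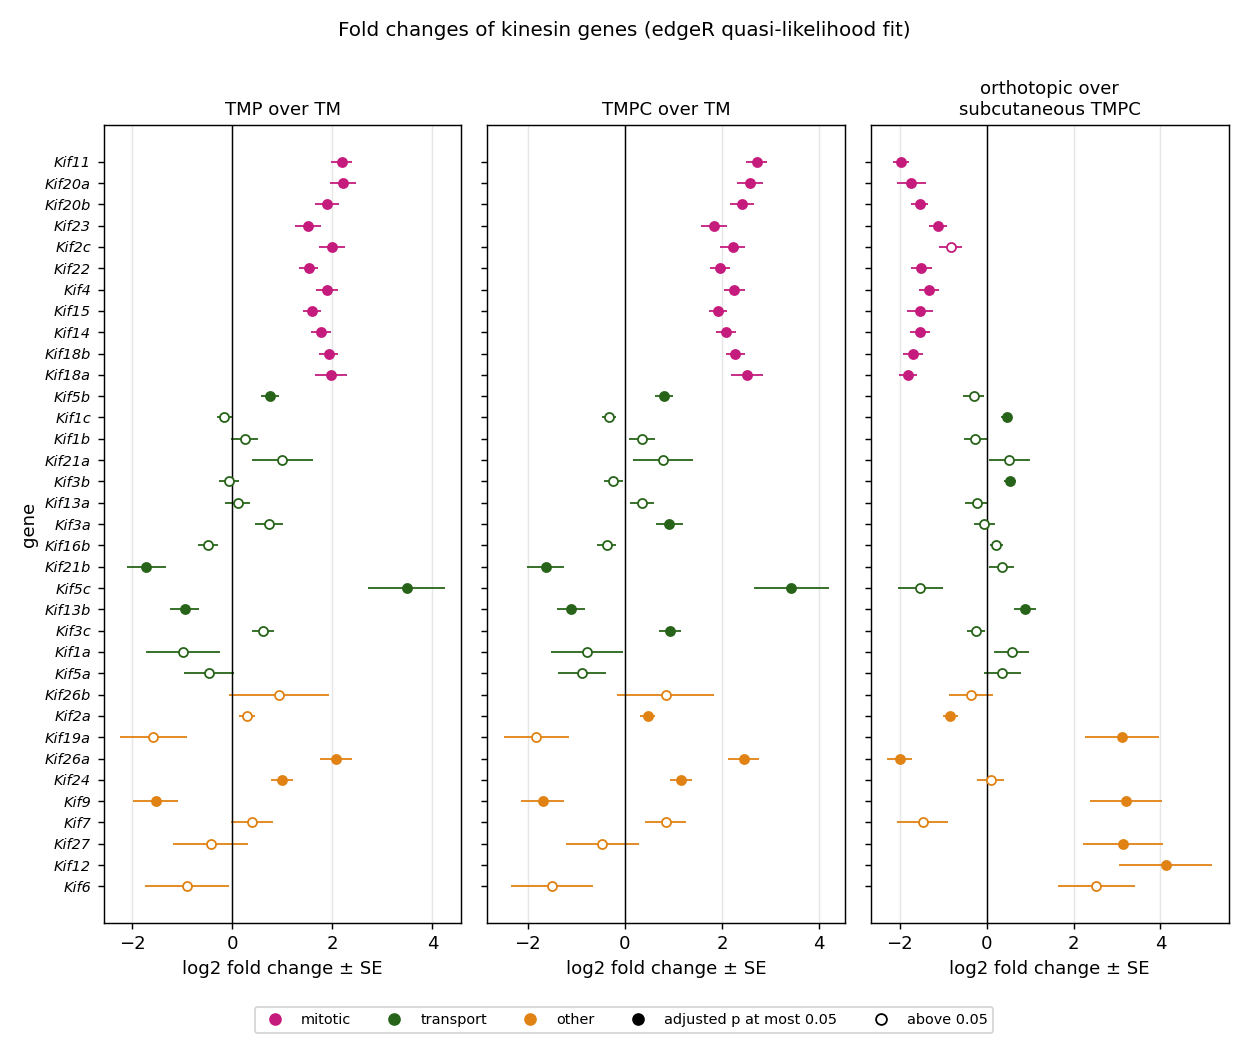
Points give the log2 fold change of each tested kinesin gene (rows) with its SE for TMP over TM, TMPC over TM and orthotopic over subcutaneous TMPC; filled points have an edgeR adjusted p of at most 0.05. The 11 mitotic kinesins (pink) lie between 1.51 and 2.72 in the comparisons with TM and between -1.97 and -0.83 between the sites, where Kif2c is the open point; transport kinesins (green) lie on both sides of 0, from Kif21b at -1.71 to Kif5c at 3.49.

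Subcutaneous TMPC tumours were set against the same TM libraries, so the comparisons with TM are not independent of each other. The 11 tested mitotic kinesins were again all higher (18.0% of tested genes were called higher and 17.8% lower), with log2 fold changes of 1.83 to 2.72 and a median of 2.26, against -0.07 over all tested genes. Kif11 reached 232, 258 and 289 CPM in TMPC libraries against 50.3, 28.8 and 35.1 CPM in TM libraries, a log2 fold change of 2.72 ± 0.21 (edgeR adjusted p = 0.00054). No group overlapped in any of the 11, where 26.1% of tested genes lay higher without overlap. Kif20a followed with 2.57 ± 0.27, Kif18a with 2.52 ± 0.33 and Kif20b with 2.40 ± 0.25. Kif23 had the smallest value, 1.83 ± 0.27, at 96.6, 73.1 and 99.4 CPM in TMPC libraries against 33.7, 14.3 and 25.02 CPM in TM libraries. The 11 calls held under each setting tried, and without TM replicate 2 Kif11 had 2.61 ± 0.22 and Kif23 1.61 ± 0.20. The same 8 proliferation markers were higher (median 2.45), while 4 of 5 macrophage and 3 of 3 neutrophil markers were lower in TMPC tumours, with sums of 120 to 202 and 7.86 to 30.9 CPM there. Their part in the difference was not tested.

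The remaining members had log2 fold changes of 2.28 ± 0.19 (Kif18b), 2.26 ± 0.22 (Kif4), 2.22 ± 0.26 (Kif2c), 2.08 ± 0.20 (Kif14), 1.96 ± 0.20 (Kif22) and 1.92 ± 0.18 (Kif15). In TMPC, TMP and TM libraries Kif14 ran from 41.2 to 51.5, 36.5 to 37.1 and 8.36 to 13.7 CPM, and Kif15 from 48.1 to 69.2, 47.2 to 47.7 and 14.0 to 17.8 CPM. Kif18b ran from 37.8 to 49.1, 31.9 to 36.2 and 7.43 to 10.7 CPM, and Kif22 from 66.3 to 75.8, 47.9 to 55.4 and 12.2 to 21.3 CPM. Kif4 ran from 60.6 to 76.3, 46.1 to 60.2 and 9.70 to 16.9 CPM. In each of these 5 genes every TMPC library was above every TMP library (7.15% of tested genes), and every TMP library above every TM library (27.5%). Kif2c ran from 65.4 to 85.2, 55.9 to 71.7 and 9.70 to 21.7 CPM, and its TMPC and TMP libraries overlapped. Kif4 shares 15.1% of its exon length with Pdzd11 on the opposite strand, which stood at 37.8 to 42.2, 31.0 to 34.7 and 21.7 to 29.7 CPM in the 3 groups.

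Between subcutaneous TMPC and TMP tumours no gene at all passed edgeR's test (0% of 15277; 465 had an unadjusted p under 0.05, and DESeq2 called 16). None of the kinesins passed with either tool. The 11 tested mitotic kinesins each had a log2 fold change above 0, from 0.23 to 0.54 with a median of 0.36, beside a median of 0.01 over all tested genes. For 9 of the 11, every TMPC library was above every TMP library, where 7.15% of tested genes showed this. Kif23 and Kif2c were the ones that overlapped. Kif11 had 0.53 ± 0.20 and the smallest unadjusted p of the class (0.0296 by edgeR, adjusted p = 0.9999). The mitotic sum was 1.85 to 2.08 times the level of Mki67 in TMPC libraries and 1.56 to 1.72 times in TMP libraries. The 14 transport kinesins tested had log2 fold changes of -0.42 to 0.31 and the 9 others -0.59 to 0.44, and in both classes the median was close to that of all genes, at 0.07 and -0.03. Among them Kif1c lay lower and Kif2a higher in each TMPC library, where 5.67% of tested genes lay lower without overlap.

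The sites were compared within TMPC, orthotopic against subcutaneous, and this comparison varies the place of growth. The subcutaneous TMPC libraries are the same as in the comparison with TM. Kif11 had 54.5, 62.2 and 75.1 CPM in orthotopic libraries and 232, 258 and 289 CPM in subcutaneous ones. Its log2 fold change was -1.97 ± 0.19 (edgeR adjusted p = 0.00755). Kif18a stood at 10.6, 12.4 and 12.9 CPM in orthotopic libraries and 38.7, 48.8 and 43.1 CPM in subcutaneous ones, which gave -1.81 ± 0.20 (edgeR adjusted p = 0.00818). For Kif20b the values were 31.5, 36.9 and 45.6 CPM in orthotopic libraries and 112, 103 and 129 CPM in subcutaneous ones, a log2 fold change of -1.54 ± 0.20 (edgeR adjusted p = 0.00905). In these 3 genes the groups were far apart, and their calls held under each setting tried.

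Of the 11 tested mitotic kinesins 10 were lower in orthotopic tumours, where 13.8% of the 15123 tested genes were called lower and 14.0% higher. Log2 fold changes of the 11 ran from -1.97 to -0.83 with a median of -1.54, beside a median of 0.05 over all tested genes. Kif2c was the exception, at 33.1, 31.5 and 56.9 CPM in orthotopic libraries and 85.2, 65.4 and 74.9 CPM in subcutaneous ones (-0.83 ± 0.27, edgeR adjusted p = 0.0619). The groups did not overlap for any of the 11, Kif2c included, while 26.3% of tested genes lay lower without overlap. Kif20a fell by 1.73 ± 0.34, Kif18b by 1.70 ± 0.23, Kif14 by 1.54 ± 0.23 and Kif15 by 1.54 ± 0.31. Kif22 fell by 1.50 ± 0.24, Kif4 by 1.32 ± 0.23 and Kif23 by 1.12 ± 0.21.

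**Figure D4:**
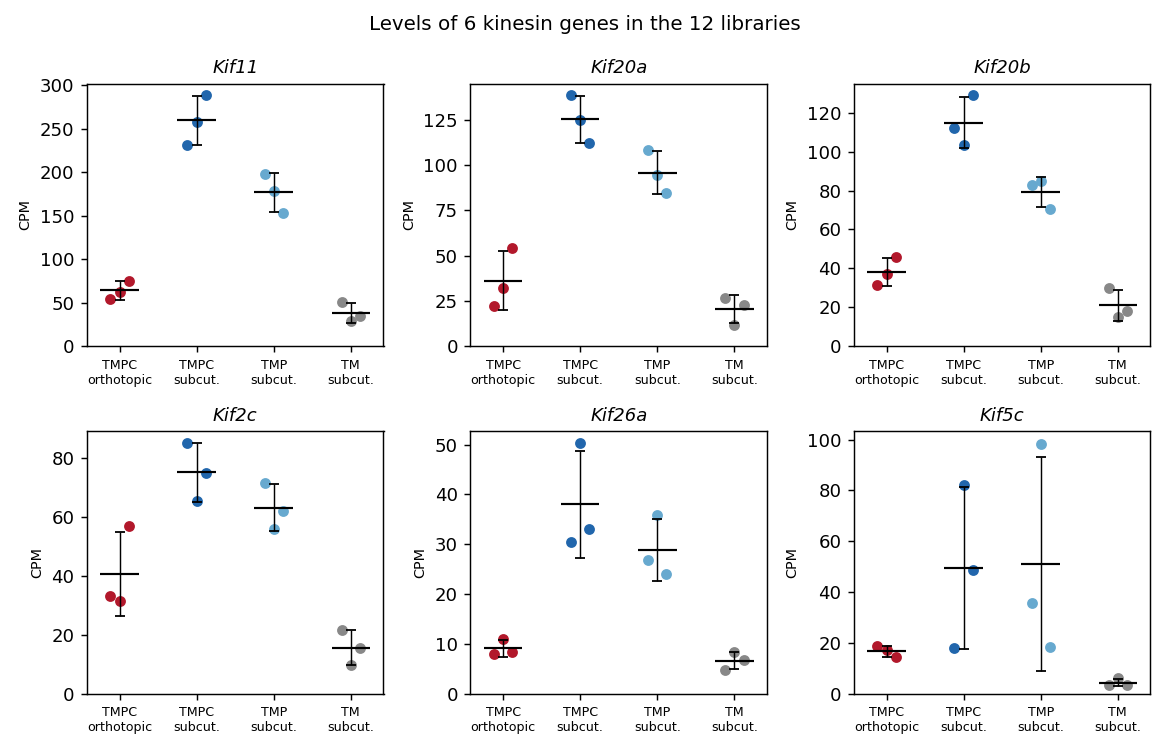
Points give the CPM of 6 kinesin genes in each library, with the group mean (bar) and SD (whisker, n = 3), from orthotopic TMPC through subcutaneous TMPC and TMP to TM. Kif11, Kif20a, Kif20b, Kif2c and Kif26a are lower in orthotopic TMPC and in TM than in subcutaneous TMPC; Kif5c spreads from 18.2 to 98.4 CPM within subcutaneous TMPC and TMP and lies between 3.53 and 6.02 CPM in TM.

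Orthotopic replicate 3 was the highest of its group for each of the 11 genes. Without it 11 were called lower, Kif2c at -1.19 ± 0.17 (edgeR adjusted p = 0.00946) and Kif20a at -2.18 ± 0.23. The share of all tested genes called lower in that fit was not set beside this count. Without orthotopic replicate 2 only 3 passed, and all genes past the threshold numbered 387 in place of 4204. Of the 8 that missed it there, 7 had edgeR adjusted p values of 0.0511 to 0.067, with log2 fold changes from -1.65 in Kif18b to -1.18 in Kif23, and Kif2c had 0.167. Without orthotopic replicate 1, 8 passed, and Kif4, Kif15 and Kif2c did not, and without subcutaneous replicate 2 the call of Kif15 ended too. Proliferation markers moved in the same direction, with 8 of 8 lower in orthotopic tumours (median -1.51) and sums of 673, 717 and 1083 CPM there against 2460, 2437 and 2190 CPM under the skin. The sum of the mitotic kinesins was 1.51 to 1.73 times the level of Mki67 in orthotopic libraries and 1.85 to 2.08 times in subcutaneous ones. Fibroblast markers summed to 6557, 7293 and 18235 CPM in orthotopic and 3599 to 5371 CPM in subcutaneous TMPC libraries, beside the gastric and liver markers given above, and the part of any of these in the lower kinesin levels was not tested.

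Genes that work with the mitotic kinesins were described from a list of 16 partners, such as the chromosomal passenger proteins and the outer kinetochore. In TMP against TM tumours 15 of 16 were higher (median 1.63), in TMPC against TM 16 of 16 (2.04), and in orthotopic against subcutaneous TMPC 16 of 16 were lower (-1.39). Of all tested genes 14.3 and 18.0% were called higher in the comparisons with TM and 13.8% lower between the sites. Their medians were -0.07, -0.07 and 0.05. Incenp, the scaffold of the passenger complex, rose by 1.52 ± 0.13 in TMP and 1.97 ± 0.13 in TMPC over TM tumours. Tpx2, a spindle assembly factor that binds Kif11 and Kif15, rose by 2.24 ± 0.20 in TMP, and Birc5, another passenger subunit, by 2.18 ± 0.17 in TMPC over TM tumours. Racgap1, which forms centralspindlin together with Kif23, fell by 1.66 ± 0.16 in orthotopic tumours (edgeR adjusted p = 0.00755). Aurkb, the passenger kinase, fell there by 1.62 ± 0.22. Of 11 kinesins and kinesin light chains in the table whose symbols lie outside the rule, 3 were higher and 1 lower in each comparison with TM. At the orthotopic site 2 were higher and 3 lower, beside 13.4 to 18.0% of all tested genes called in a direction. This list mixes spindle motors with light chains and other motors, so its pooled counts do not describe the spindle motors alone. Cenpe, the kinetochore motor, had log2 fold changes of 2.20 ± 0.25, 2.44 ± 0.25 and -1.35 ± 0.22 for TMP over TM, TMPC over TM and orthotopic over subcutaneous TMPC. Kifc1, a minus-end motor of the spindle, had 1.75 ± 0.23 and 2.11 ± 0.23 in the comparisons with TM. Kifc3, a minus-end motor of epithelial junctions, had -1.36 ± 0.33 and -1.56 ± 0.34 there and 1.12 ± 0.24 for orthotopic over subcutaneous TMPC.

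Transcription of many mitotic genes in late cell cycle phases is under the DREAM complex, B-Myb and FoxM1, which act through a short promoter element called the CHR. Of 17 listed regulators of G2 and M phase transcription, E2f genes among them, 9 were higher and 2 lower in TMP than in TM tumours. In TMPC over TM 10 were higher and 1 lower, and 10 were lower in orthotopic than in subcutaneous TMPC tumours. Of all tested genes 14.3 and 13.4% were called higher and lower in TMP over TM, and 18.0 and 17.8% in TMPC over TM. Between the sites 13.8% were called lower. Mybl2, which encodes B-Myb, stood at 87.2 to 121 CPM in TMP libraries and 10.2 to 19.4 CPM in TM libraries (log2 fold change 2.65 ± 0.26), and Lin9, a subunit of the MuvB core, rose by 1.70 ± 0.16. Rbl2, which encodes the repressive pocket protein p130, fell by 1.14 ± 0.20. Foxm1 had -1.37 ± 0.24 and Rbbp4, a histone-binding MuvB subunit, -0.94 ± 0.13 for orthotopic over subcutaneous TMPC (edgeR adjusted p = 0.014 and 0.0101).

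Promoters were therefore searched for the letters of the CHR, TTTGAA, on both strands of the RefSeq window from 250 bases before to 50 after each gene's start (GRCm38.p6, the build also called mm10). Windows were given for 31 of the 37 members, and those of Kif20a, Kif19a, Kif13b, Kif21b, Kif5a and Kif5b were not used here. The letters were in the window of 9 of 11 mitotic kinesins (81.82%), 1 of 11 transport kinesins (9.09%), 2 of 9 others (22.22%) and 20.23% of 27025 genes with a window. The mitotic kinesins without them were Kif18a and Kif2b, and the transport kinesin with them was Kif1a. A match of letters is a description of these windows and no evidence of binding.

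The whole windows of Kif11 and Kif20b are shown because these are the mitotic kinesins with the highest mean CPM among those that have one. They lie at chr19:37376132-37376431 and chr19:34922108-34922407, both on the plus strand, and run 5' to 3'. Capitals mark the CHR letters, which read TTCAAA when they are on the other strand, and in Kif11 also a CCAAT box, which reads ATTGG on the other strand. Kif20b holds the CHR letters as a direct repeat.
Kif11: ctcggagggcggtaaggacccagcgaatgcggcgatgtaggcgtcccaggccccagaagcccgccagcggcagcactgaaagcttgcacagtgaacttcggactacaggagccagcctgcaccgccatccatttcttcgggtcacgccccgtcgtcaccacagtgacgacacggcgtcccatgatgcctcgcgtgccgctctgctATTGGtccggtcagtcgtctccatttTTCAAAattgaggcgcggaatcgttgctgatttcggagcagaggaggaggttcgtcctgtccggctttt
Kif20b: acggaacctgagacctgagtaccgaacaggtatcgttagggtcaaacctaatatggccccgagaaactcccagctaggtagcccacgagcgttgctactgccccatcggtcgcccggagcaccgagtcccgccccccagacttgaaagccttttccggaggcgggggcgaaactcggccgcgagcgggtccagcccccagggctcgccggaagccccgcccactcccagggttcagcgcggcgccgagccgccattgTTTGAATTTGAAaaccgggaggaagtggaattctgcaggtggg

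For the other 7 mitotic kinesins with a match, 46 bases around it are shown, to let the surroundings of the element be compared. They come from chr9:122951042-122951087 (plus strand, Kif15), chr7:127042412-127042457 (minus, Kif22), chr11:102925096-102925141 (minus, Kif18b), chr9:61946772-61946817 (minus, Kif23), chrX:100626064-100626109 (plus, Kif4), chr4:117178850-117178895 (minus, Kif2c) and chr1:136467600-136467645 (plus, Kif14). Capitals mark the CHR letters.
Kif15: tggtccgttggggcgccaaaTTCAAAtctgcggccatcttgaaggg
Kif22: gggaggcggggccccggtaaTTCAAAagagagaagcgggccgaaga
Kif18b: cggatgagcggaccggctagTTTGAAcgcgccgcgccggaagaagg
Kif23: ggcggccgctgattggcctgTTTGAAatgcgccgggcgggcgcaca
Kif4: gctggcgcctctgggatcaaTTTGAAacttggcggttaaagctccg
Kif2c: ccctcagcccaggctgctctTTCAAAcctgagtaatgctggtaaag
Kif14: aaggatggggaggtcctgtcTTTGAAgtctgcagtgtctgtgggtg

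Counted from the RefSeq start, the first base of the nearest CHR match lies at -19 in Kif11 and Kif15, at -17 in Kif22, and at 2, 3, 7 and 19 in Kif23, Kif18b, Kif20b and Kif4. In Kif2c and Kif14 it lies at -103 and -228, and the RefSeq start of these genes lies inside the gene as GENCODE annotates it. The RefSeq starts of Kif4, Kif15 and Kif22 also lie inside the annotated gene, though less far in. The CCAAT box, letters that in many cell cycle promoters stand upstream of the CHR, was in 7 of 11 mitotic windows (63.64%), 3 of 11 transport windows (27.27%), 4 of 9 others (44.44%) and 41.06% of all genes. The E-box CACGTG was in no mitotic window, in that of Kif1a and in 8.09% of all genes.

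Windows of the transport kinesins with the highest mean CPM among those that have one are given for contrast. Kif1c (chr11:70700298-70700597, plus strand) has none of the letters searched, and Kif1b (chr4:149307684-149307983, minus strand) has the CCAAT box in reverse at 2 places, in capitals, and no CHR. Another RefSeq start of Kif1b nearby gave the same matches.
Kif1c: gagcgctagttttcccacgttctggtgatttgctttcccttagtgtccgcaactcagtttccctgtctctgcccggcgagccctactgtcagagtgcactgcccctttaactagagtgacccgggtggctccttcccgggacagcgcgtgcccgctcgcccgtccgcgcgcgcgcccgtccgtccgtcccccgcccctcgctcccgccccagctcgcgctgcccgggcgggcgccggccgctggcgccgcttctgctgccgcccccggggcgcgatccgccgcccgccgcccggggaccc
Kif1b: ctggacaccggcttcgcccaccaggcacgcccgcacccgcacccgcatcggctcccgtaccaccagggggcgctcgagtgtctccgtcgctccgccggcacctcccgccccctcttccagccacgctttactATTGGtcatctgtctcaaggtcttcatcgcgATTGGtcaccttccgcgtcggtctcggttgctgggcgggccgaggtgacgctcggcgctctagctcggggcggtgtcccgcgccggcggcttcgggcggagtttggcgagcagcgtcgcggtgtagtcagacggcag

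The order of levels per length depended on the group. Kif5b, the ubiquitous heavy chain of conventional kinesin, averaged 43.1 CPM per kb over the 12 libraries and Kif1c, which carries integrins and other vesicles, 35.0, ahead of Kif11 with 18.0, Kif20a with 16.0 and Kif3b with 15.0. In subcutaneous TMPC tumours alone Kif11 averaged 34.8 and Kif20a 28.9 CPM per kb, beside 52.5 for Kif5b and 30.1 for Kif1c, whereas in TM tumours Kif1c averaged 36.5, Kif5b 28.8 and Kif3b 14.5. Kif5a, Kif1a and Kif17, which are mainly neuronal motors, averaged 0.218, 0.589 and 0.1 CPM per kb. Kif17 ran from 0.103 to 1.65 CPM over the libraries and did not pass the filter on low counts. It was not called in the alternatives that tested it.

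In TMP against TM tumours 2 of 14 tested transport kinesins were higher and 2 lower, with a median log2 fold change of 0.02. In TMPC against TM tumours 4 were higher and 2 lower (median 0.06), and in orthotopic against subcutaneous TMPC 3 were higher and none lower (median 0.28). None of these counts is more than 2 genes away from what the shares of all tested genes called in the same direction (13.4 to 18.0%) would give for 14. Without overlap, 5 were higher and 2 lower in TMP than in TM (27.5 and 23.2% of tested genes). Likewise 4 were higher and 2 lower in TMPC than in TM (26.1 and 21.6%). At the orthotopic site 4 lay higher and 0 lower without overlap (22.4 and 26.3%). Without TM replicate 2 the numbers higher and lower were 3 and 2 for TMP over TM and 4 and 4 for TMPC over TM. Without orthotopic replicate 3, 2 were higher at the orthotopic site. The shares above are of the fits with all libraries, and those of the fits without a library were not set beside these numbers.

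Kif5c, a conventional kinesin heavy chain best known from neurons, had the largest rise of the tested kinesins in the comparisons with TM. It stood at 18.2, 81.9 and 48.7 CPM in subcutaneous TMPC, 35.6, 98.4 and 18.5 CPM in TMP and 3.62, 6.02 and 3.53 CPM in TM libraries. TM was below both other groups in each library, although those groups spread by several fold. Log2 fold changes were 3.43 ± 0.77 for TMPC over TM and 3.49 ± 0.77 for TMP over TM (edgeR adjusted p = 0.0116 and 0.0155), and 3.80 ± 0.90 and 3.84 ± 0.90 without TM replicate 2. In orthotopic TMPC tumours it had 18.6, 17.02 and 14.4 CPM, which did not pass against subcutaneous TMPC (-1.53 ± 0.52, edgeR adjusted p = 0.0676). The groups overlapped there, since subcutaneous TMPC replicate 1 was at 18.2 CPM.

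Other genes also differed between these groups. Markers of neurons and neuroendocrine cells summed to 76.6, 163 and 160 CPM over 10 genes in subcutaneous TMPC, 91.6, 170 and 111 CPM in TMP and 15.3, 14.8 and 20.4 CPM in TM libraries. Map2 had 20.9, 90.4 and 67.9 CPM, 47.6, 88.4 and 50.5 CPM, and 6.49, 5.22 and 6.73 CPM in these groups. Orthotopic libraries had sums of 81.9, 105 and 51.4 CPM, with Chga at 57.5, 36.5 and 20.4 CPM. Within subcutaneous TMPC, replicate 2 was highest and replicate 1 lowest for both Kif5c and this sum. Within TMP, replicate 2 was highest for both, while replicate 3 was lowest for Kif5c and replicate 1 for this sum. Rbfox3, Elavl4 and Nefl of the same list reached at most 1.63, 1.37 and 0.781 CPM in any library. Of the 8 markers of this list that were tested, Uchl1, Map2 and Snap25 were higher in subcutaneous TMPC and in TMP than in TM (18.0 and 14.3% of tested genes). Skeletal muscle markers summed to 18.4, 172 and 114 CPM in subcutaneous TMPC, 8.80, 153 and 1.36 CPM in TMP and 0.532, 1.61 and 0.458 CPM in TM libraries. Within subcutaneous TMPC and within TMP, the order of replicates was the same for the muscle sum as for Kif5c. Within orthotopic TMPC it was not, with muscle sums of 6.23, 2.40 and 2.96 CPM. The part of neuronal, neuroendocrine or muscle cells in the level of Kif5c was not tested.

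Kif5b had 325, 502 and 431 CPM in subcutaneous TMPC, 379, 413 and 400 CPM in TMP and 268, 205 and 217 CPM in TM libraries. It rose by 0.81 ± 0.19 in TMPC and by 0.76 ± 0.19 in TMP over TM tumours (edgeR adjusted p = 0.0129 and 0.0219). The second call ended when TM replicate 3 or any TMP replicate was left out (edgeR adjusted p = 0.0604 to 0.0688). Kif3a and Kif3c encode motor subunits of kinesin-2, which carries cargo into cilia and along axons. Kif3a had 59.7, 51.5 and 48.5 CPM in TMPC libraries against 31.7, 14.8 and 35.6 CPM in TM libraries (0.91 ± 0.28, edgeR adjusted p = 0.0343), a call that held in 2 of the 9 fits that left out 1 library (edgeR adjusted p = 0.0563 to 0.0897 in the other 7) and had 0.66 ± 0.15 without TM replicate 2. Kif3c had 24.2, 34.4 and 29.3 CPM in TMPC libraries against 17.6, 11.6 and 15.3 CPM in TM libraries (0.92 ± 0.22, edgeR adjusted p = 0.0154, and 0.0556 without subcutaneous TMPC replicate 2). A noncoding gene on the opposite strand, 1110002L01Rik, shares 35.3% of the exon length of Kif3c. It had 8.54, 7.81 and 5.73 CPM in TMPC libraries and 3.83, 1.94 and 3.89 CPM in TM libraries. The part of its reads in the level of Kif3c was not tested.

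Kif21b and Kif13b were the transport kinesins lower than in TM. Kif21b, which also restrains microtubule growth, had 27.3, 14.2 and 20.7 CPM in subcutaneous TMPC, 19.98, 16.8 and 20.8 CPM in TMP and 52.1, 91.9 and 37.3 CPM in TM libraries. The highest level was in TM replicate 2, and each TM library was above the others. Log2 fold changes were -1.63 ± 0.38 for TMPC over TM and -1.71 ± 0.38 for TMP over TM, or -1.11 ± 0.28 and -1.21 ± 0.28 without that library (edgeR adjusted p = 0.0151 for both). The call for TMPC ended without subcutaneous TMPC replicate 2 and that for TMP without any 1 TMP replicate (edgeR adjusted p = 0.0503 to 0.0593). Kif13b, which carries membrane proteins, had 17.02, 18.8 and 16.4 CPM in TMPC, 15.6, 19.1 and 22.8 CPM in TMP and 49.8, 35.7 and 22.9 CPM in TM libraries, and TMP replicate 3 nearly reached TM replicate 3. It had -1.11 ± 0.29 for TMPC over TM and -0.95 ± 0.29 for TMP over TM (edgeR adjusted p = 0.0204 and 0.0424). These calls were lost in 4 and 8 of the 9 fits without 1 library, in which the adjusted p reached 0.0722 and 0.156.

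Between the sites, Kif13b had 32.7, 38.7 and 21.9 CPM in orthotopic libraries (0.88 ± 0.25, edgeR adjusted p = 0.0432). Kif3b, the partner of Kif3a in kinesin-2, had 110, 106 and 89.9 CPM in orthotopic libraries against 80.2, 65.0 and 74.0 CPM in subcutaneous TMPC libraries (0.53 ± 0.14, edgeR adjusted p = 0.0345). Kif1c had 272, 317 and 280 CPM against 221, 206 and 231 CPM (0.46 ± 0.14, edgeR adjusted p = 0.0497). The groups did not overlap in these 3 genes. The calls were nonetheless fragile: leaving out 1 library ended them in 5, 4 and 6 of 6 fits, with adjusted p values of up to 0.146, 0.157 and 0.195.

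The remaining transport kinesins did not pass in any comparison. Kif1b, a motor of mitochondria and synaptic vesicle precursors, averaged 203 CPM and ran from 138 to 333 CPM. Kif13a, which carries recycling endosomes, ran from 43.9 to 83.3 CPM, and Kif16b, an early endosome motor, from 30.9 to 60.2 CPM. Without TM replicate 2 Kif16b was called lower in TMP and TMPC than in TM tumours (-0.65 ± 0.16 and -0.52 ± 0.16). Kif21a, a relative of Kif21b, had 10.3 CPM in TM replicate 2 and 43.8 to 172 CPM elsewhere. Kif1a had 15.9 CPM in TM replicate 2 and 2.59 to 8.54 CPM elsewhere, and Kif5a ran from 0.948 to 3.14 CPM.

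Cargo adaptors of the transport kinesins, 14 of them tested, had 0 members past the threshold in TMP over TM, 1 higher and 2 lower in TMPC over TM, and 1 higher and 2 lower in orthotopic over subcutaneous TMPC and did not stand apart from the 13.4 to 18.0% of all tested genes called in a direction. Fyco1, which links late endosomes to kinesin, had -1.25 ± 0.27 for TMPC over TM and 0.87 ± 0.16 between the sites (edgeR adjusted p = 0.00984 and 0.0149). Rhot1, a mitochondrial anchor of kinesin adaptors, had 0.59 ± 0.14 and -0.54 ± 0.12. Of 22 genes of cytoplasmic dynein and dynactin, which move the opposite way along microtubules, 6 were higher in TMP and 5 in TMPC than in TM tumours and none were lower, beside 14.3 and 18.0% of all tested genes called higher. At the orthotopic site 1 was higher and 1 lower. The smallest adjusted p among them was that of Nde1, a dynein regulator with a role in mitosis, which rose by 1.05 ± 0.17 and 1.26 ± 0.17 and fell by 0.98 ± 0.19 in orthotopic tumours.

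Among the other kinesins, 2 of 9 tested were higher and 1 lower in TMP than in TM tumours, and 3 were higher and 1 lower in TMPC than in TM tumours, while 4 of 10 were higher and 2 lower in orthotopic than in subcutaneous TMPC tumours. Of all tested genes 14.3 and 13.4%, 18.0 and 17.8%, and 14.0 and 13.8% were called higher and lower in these comparisons. Kif26a, a member without ATPase activity that acts in signalling and in the enteric nervous system, followed the mitotic kinesins in direction. It stood at 30.5, 50.4 and 33.1 CPM in subcutaneous TMPC, 26.8, 35.8 and 23.9 CPM in TMP and 4.84, 8.30 and 6.83 CPM in TM libraries. Log2 fold changes were 2.44 ± 0.33 for TMPC over TM and 2.07 ± 0.32 for TMP over TM (edgeR adjusted p = 0.0018 and 0.00498), and 2.70 ± 0.34 and 2.31 ± 0.33 without TM replicate 2. In orthotopic TMPC libraries it had 7.92, 11.05 and 8.48 CPM, below each subcutaneous TMPC library, with a log2 fold change of -2.005 ± 0.29 (edgeR adjusted p = 0.0103). The 3 calls held under each setting tried. Its relative Kif26b, which acts in cell polarity and adhesion, passed in none of the comparisons and ran from 1.74 CPM in TM replicate 2 to 104 CPM.

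Kif24, a depolymerase that holds back cilium formation at the mother centriole, had 13.5, 13.5 and 16.8 CPM in subcutaneous TMPC, 11.5, 12.9 and 14.1 CPM in TMP and 7.08, 5.69 and 6.05 CPM in TM libraries. It rose by 1.16 ± 0.23 in TMPC and 1.00 ± 0.23 in TMP over TM tumours (edgeR adjusted p = 0.00723 and 0.0172, the second lost without TMP replicate 2 or 3 at 0.054 and 0.0673). Kif2a, a microtubule depolymerase of spindles and neurons, had 35.1, 31.3 and 44.0 CPM in orthotopic TMPC, 68.1, 70.1 and 67.1 CPM in subcutaneous TMPC, 67.02, 61.6 and 49.2 CPM in TMP and 49.7, 48.1 and 43.6 CPM in TM libraries. It was lower in orthotopic than in subcutaneous TMPC (-0.84 ± 0.18, edgeR adjusted p = 0.02) and higher in TMPC than in TM (0.48 ± 0.15, edgeR adjusted p = 0.0434). Each of these calls was lost in 4 fits without 1 library, the first at adjusted p values of 0.0525 to 0.0721 and the second at 0.0503 to 0.112. Dimt1 on the opposite strand shares 19.2% of the exon length of Kif2a. Dimt1 stood at 12.8, 11.9 and 21.2 CPM in orthotopic TMPC and 44.3, 43.3 and 50.1 CPM in subcutaneous TMPC libraries. In TMP libraries it had 51.6, 34.0 and 31.4 CPM, and in TM libraries 19.7, 16.9 and 24.1 CPM. The part of its reads in the differences of Kif2a was not tested. Kif7, a regulator of Hedgehog signalling at the cilium tip, had 1.51, 1.77 and 4.69 CPM in orthotopic libraries and 11.1, 6.85 and 5.21 CPM in subcutaneous TMPC libraries, which did not pass (-1.47 ± 0.59, edgeR adjusted p = 0.103). Without orthotopic replicate 3 it did (-2.20 ± 0.49, edgeR adjusted p = 0.0239). A noncoding gene on the opposite strand shares 19.1% of the exon length of Kif7.

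Kif19a, Kif9, Kif27, Kif6 and Kif12 were higher in orthotopic replicates 1 and 2 than in every subcutaneous TMPC library. Kif19a, a depolymerase that limits the length of motile cilia, stood at 87.6, 70.1 and 10.8 CPM in orthotopic libraries and 11.9, 2.99 and 5.32 CPM in subcutaneous TMPC libraries (3.11 ± 0.85, edgeR adjusted p = 0.0393). Kif9, a motor of motile cilia and sperm tails, had 17.5, 25.5 and 3.01 CPM in orthotopic libraries and 2.69, 1.34 and 1.14 CPM in subcutaneous TMPC libraries (3.21 ± 0.82, edgeR adjusted p = 0.0331). Kif27, which is needed for motile cilia, had 19.8, 9.10 and 2.23 CPM against 2.28, 0.695 and 0.671 CPM (3.14 ± 0.92, edgeR adjusted p = 0.0464). In each of these genes replicates 1 and 2 stood far above every subcutaneous TMPC library, and replicate 3 did not. Kif12, best known from the kidney and bile ducts, had 3.03, 3.03 and 0.614 CPM in orthotopic libraries and 0, 0.267 and 0.103 CPM in subcutaneous TMPC libraries (4.12 ± 1.07, edgeR adjusted p = 0.0348). Kif6, found in the ciliated lining of brain ventricles, had 3.60, 5.98 and 0.446 CPM in orthotopic libraries and 0.527, 0.588 and 0.671 CPM in subcutaneous TMPC libraries (2.52 ± 0.88, edgeR adjusted p = 0.0734).

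Without orthotopic replicate 3 these 5 genes were called higher, at 3.59 ± 0.55 (Kif19a), 3.68 ± 0.48 (Kif9), 3.60 ± 0.70 (Kif27), 4.55 ± 0.94 (Kif12) and 3.02 ± 0.47 (Kif6). The share of all tested genes called higher in that fit was not set beside these calls. Without orthotopic replicate 1 or 2 none of the 5 genes was called higher. The calls of Kif12, Kif9, Kif19a and Kif27 ended in 5, 5, 4 and 4 of the 6 fits without 1 library (edgeR adjusted p up to 0.145). Markers of ciliated cells summed to 566, 525 and 22.8 CPM over 5 genes in orthotopic libraries and 38.4, 3.16 and 9.29 CPM in subcutaneous TMPC libraries, and to 13.0, 4.24 and 20.9 CPM in TMP and 31.1, 3.41 and 93.3 CPM in TM libraries. Foxj1, the master regulator of motile cilia, stood at 305, 220 and 15.9 CPM in the orthotopic libraries and 16.2, 2.41 and 6.19 CPM in the subcutaneous TMPC libraries. These markers were highest in the same pair of libraries as Kif19a, Kif9, Kif27 and Kif6, though not Kif12, and their part in the difference was not tested. Of a list of 25 cilium genes, 4 were higher and 3 lower in orthotopic tumours, near the shares over all tested genes (14.0 and 13.8%), with Cfap45, a protein of motile cilia, at 3.39 ± 0.85, and with Sufu and Gli3, both of Hedgehog signalling, at -1.13 ± 0.18 and -1.33 ± 0.24.

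**Figure D5:**
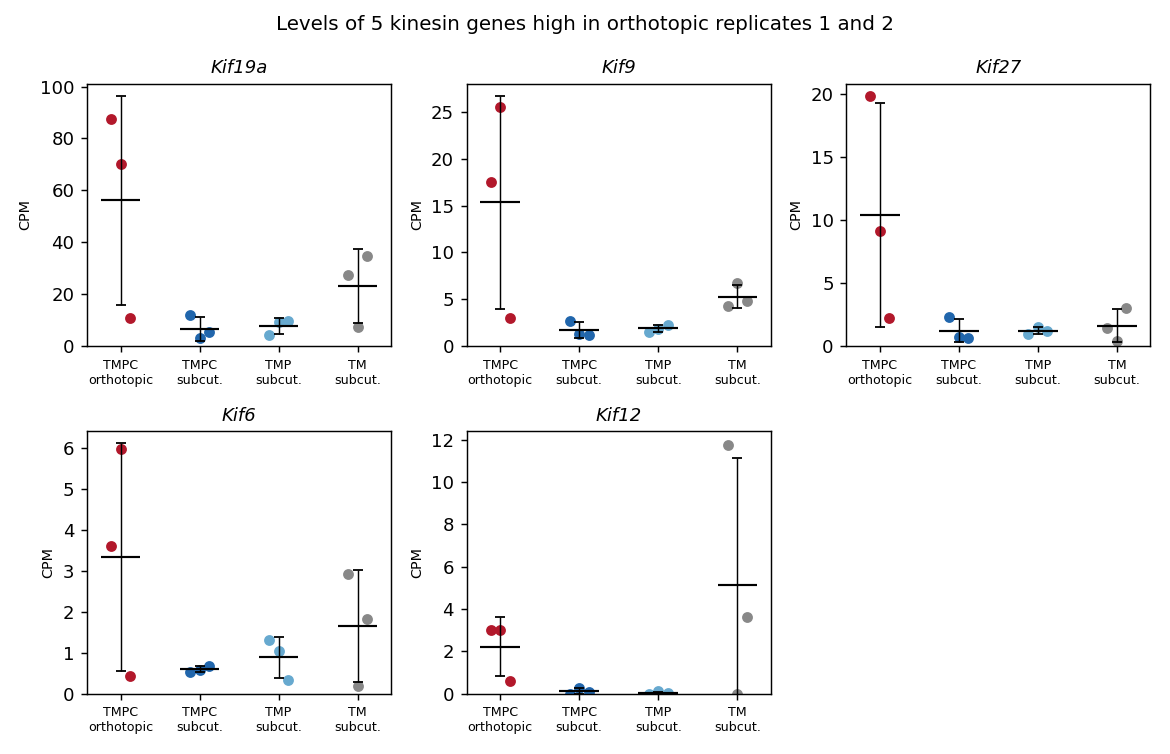
Points give the CPM of Kif19a, Kif9, Kif27, Kif6 and Kif12 in each library with the group mean (bar) and SD (whisker, n = 3), from orthotopic TMPC through subcutaneous TMPC and TMP to TM. Orthotopic replicates 1 and 2 are the highest points for Kif19a, Kif9, Kif27 and Kif6, replicate 3 lies with the subcutaneous libraries, and Kif12 is highest in TM replicate 1 at 11.8 CPM.

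Kif9 was also the only tested gene among the other kinesins that was called lower than in TM under the skin. It had 2.69, 1.34 and 1.14 CPM in TMPC, 1.55, 1.85 and 2.26 CPM in TMP and 4.31, 6.69 and 4.86 CPM in TM libraries. Log2 fold changes were -1.69 ± 0.45 for TMPC over TM and -1.53 ± 0.45 for TMP over TM (edgeR adjusted p = 0.0213 and 0.0371), lost in 2 and 7 of the 9 fits without 1 library (edgeR adjusted p up to 0.0841 and 0.132). Without TM replicate 2, Kif19a was called lower in both comparisons (-2.21 ± 0.56 for TMPC and -1.98 ± 0.55 for TMP over TM), and Kif6 was called lower in TMPC than in TM (-1.98 ± 0.61). Kif12 had 11.8, 0 and 3.62 CPM in TM libraries and did not pass the filter on low counts under the skin. Where Kif12 was tested in alternatives, the calls varied: it was lower than in TM with DESeq2 (adjusted p = 0.0029 for TMP and 0.00977 for TMPC) and without TM replicate 2 in edgeR (adjusted p = 0.00429 and 0.00375). With no filter edgeR gave adjusted p = 0.0499 for TMP and 0.0592 for TMPC. Without any 1 TMP or TMPC replicate it ranged from 0.0466 to 0.135 for TMP and from 0.0702 to 0.134 for TMPC over TM.

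The X-box, the element bound by RFX factors of ciliated cells, was searched on both strands by its consensus, a motif chosen after these values were seen. It was in the windows of 1 of 9 other kinesins, Kif9, of 3 of 11 mitotic kinesins (Kif18a, Kif18b and Kif23), of no transport kinesin and of 2.49% of all genes. The window of Kif9 at the second of its RefSeq starts is shown (chr9:110476744-110477043, plus strand), with the match on the other strand in capitals at -27 from the start.
Kif9: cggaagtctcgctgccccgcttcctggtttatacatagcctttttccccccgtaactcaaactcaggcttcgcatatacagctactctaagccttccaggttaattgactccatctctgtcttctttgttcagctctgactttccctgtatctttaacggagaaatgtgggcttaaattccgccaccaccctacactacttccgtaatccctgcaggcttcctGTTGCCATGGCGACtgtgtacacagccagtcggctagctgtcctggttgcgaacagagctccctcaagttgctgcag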

How the data were processed

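Bulk RNA sequencing gave 12 libraries with 150 bp paired reads. The authors deposited whole-number counts per gene in 2 tables, which they made, per the submitters' processing notes, with STAR 2.6.0 on mm10 and with DESeq2. Neither a read counter nor an annotation is named in the labels, and strand handling is likewise not given. In the table of subcutaneous tumours 12131 of 24421 symbols are out of step with their counts from entry 12291 on. Symbols of all entries come from the other table, matched by row position, whose counts of the shared libraries are equal in 24421 entries, and the 37 kinesin symbols are the same in both.

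Counts were tested with edgeR 4.0.16 (R 4.3.3): TMM scaling, filterByExpr, the quasi-likelihood test and Benjamini-Hochberg adjustment over all tested genes, with a threshold of 0.05. The fit under the skin used 9 libraries and that between the sites used 6. SE is the log2 fold change divided by the root of the test's F. Levels per kb use exon lengths of GENCODE M21. With 3 libraries a group, an exact two-sided permutation test of a single value could not go below 0.1. The procedure was tested on simulated data. DESeq2 1.42.0, other scaling, filters, fits and left-out libraries served as alternatives.

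The members and gene lists were chosen with earlier results of these data known. All members were named, and of each other list at most the 2 genes with the smallest adjusted p in each direction, apart from markers given beside a result. The windows around the CHR letters and that of Kif9 were chosen after values were seen. Protein sequences and the 2 single-cell samples were not analysed here.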

Additional observations from a re-analysis of the deposited data

How the results depend on the processing

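The 11 mitotic calls in each comparison with TM held under every alternative run, from 11 to 11 without 1 library. Other counts moved, and the cause was not tested. With DESeq2, 16 genes passed between TMPC and TMP and 6371 between the sites, 2 and 3 other kinesins were lower in TMP and in TMPC than in TM, and 1 transport kinesin was lower at the orthotopic site. With no filter on low counts, 1 transport kinesin was lower in TMP than in TM, and 0 transport and 2 other kinesins were higher at the orthotopic site. With only the 6 libraries compared, 3536 genes passed between TMPC and TM, 1 transport kinesin was lower in each comparison with TM and 0 other kinesins were lower in TMPC. With all 12 libraries in 1 fit, 0 transport kinesins were higher at the orthotopic site.

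Whether replicate numbers pair the libraries is not known. Deviations from the group mean correlated from -0.251 to 0.291 between same-numbered libraries, and differently numbered ones were not set beside them. With a replicate block, 1 transport and 0 other kinesins were lower in each comparison with TM, and between the sites 1777 genes passed, 0 transport and 1 other kinesin were higher and 1 other kinesin was lower.

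Leaving out 1 library gave 1550 to 4885 genes for TMP over TM, with 1 to 3 transport kinesins higher and 0 to 2 lower, and 1 to 2 others higher and 0 to 2 lower. For TMPC over TM it gave 3414 to 6390 genes, 2 to 4 transport kinesins higher and 0 to 4 lower, and 2 to 3 others higher and 0 to 4 lower. Between the sites it gave 387 to 4789 genes, 3 to 11 mitotic kinesins lower, 0 to 2 transport kinesins higher and 0 to 1 lower, and 0 to 5 others higher and 1 to 3 lower. The extremes came without TM replicate 2, subcutaneous TMPC replicate 2 and orthotopic replicates 2 and 3, among others. Kif5c, Kif26a, Kif11, Kif18a and Kif20b kept each of their calls under every alternative run. Kif12 and Kif17 passed the filter on low counts in some fits only, and Kif2b had 0 counts.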
